A study of Mus musculus with 8 samples.

Results

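The nuclear genes for the respiratory chain of the mitochondrion were followed in mouse embryonic stem cells (mESCs), the cultured pluripotent cells of the early embryo. Members were the protein-coding genes with a GENCODE M21 symbol that begins with Ndufa, Ndufb, Ndufc, Ndufs or Ndufv (complex I), Sdh (complex II), Uqcr (complex III), Cox4 to Cox8 (complex IV) or Atp5 (complex V). This rule gave 98 genes of 52338 gene rows with values, namely 44 for complex I, 8 for complex II, 8 for complex III, 20 for complex IV and 18 for complex V. The prefix does not separate subunits from helpers, so 12 of the 98 are assembly factors and 8 are tissue isoforms or paralogs of complex IV subunits. Ndufa4 and Ndufa4l2 carry a complex I name and were placed with complex IV, to which the Ndufa4 protein is known to belong.

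The study measured RNA in cells treated against linc1393, a long non-coding RNA, to ask about its part in keeping pluripotency. The 8 libraries form 4 groups of 2: wild-type cells left untreated (control), cells treated with sh-linc1393, cells treated with sd-linc1393 and cells treated with dd-linc1393, each numbered replicate 1 and replicate 2. All share the mESC background. The labels do not give the line, the dose, the time, what sd and dd stand for, or whether a group's 2 libraries are independent cultures. The p-values therefore reflect library spread alone, which may be technical. No group received a reagent without a target, so an effect of linc1393 and an effect of handling or reagent cannot be told apart, and linc1393 itself was not analysed here.

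The respiratory chain passes electrons from NADH (through complex I) and from succinate (through complex II) to coenzyme Q, on to complex III and cytochrome c, and then to oxygen at complex IV. Complexes I, III and IV pump protons across the inner membrane, and complex V, the ATP synthase, lets them back to make ATP. A few core subunits of complexes I, III, IV and V are encoded by the mitochondrial genome, and all others, with the whole of complex II, by the nucleus. Pluripotent stem cells are known for a high glycolytic flux beside an active respiratory chain.

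Many nuclear respiratory genes carry sites for the transcription factor NRF1 near their start. These letters are shown first because the rule that chose the members did not use them. A promoter window in RefSeq (GRCm38.p6, 250 bases before to 50 bases after the start) was matched for 78 of the 98 members. The NRF1 letters, GCGCA then any base then GCGC, searched on both strands, were present in 21 of the 78 windows (26.9%), against 7.17% of 17492 protein-coding genes. These 17492 genes were taken whether expressed or not. They were not matched to the members for expression or base composition. The 6 stretches printed below lie upstream of the RefSeq start and outside annotated exons, with the NRF1 letters in capitals and each stretch written 5′ to 3′ on the strand of its gene. They belong to Ndufaf4 (chr4:24897833-24898082, plus strand), Ndufb4 (chr16:37654454-37654618, minus strand), Ndufs5 (chr4:123718203-123718436, minus strand), Sdha (chr13:74350281-74350308, minus strand), Cox6a1 (chr5:115348982-115349129, minus strand) and Atp5h (chr11:115419963-115420127, minus strand).
Ndufaf4: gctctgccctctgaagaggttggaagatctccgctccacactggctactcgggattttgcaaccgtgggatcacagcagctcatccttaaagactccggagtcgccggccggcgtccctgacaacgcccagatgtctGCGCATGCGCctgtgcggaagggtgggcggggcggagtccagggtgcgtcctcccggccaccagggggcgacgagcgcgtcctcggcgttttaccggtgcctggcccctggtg
Ndufb4: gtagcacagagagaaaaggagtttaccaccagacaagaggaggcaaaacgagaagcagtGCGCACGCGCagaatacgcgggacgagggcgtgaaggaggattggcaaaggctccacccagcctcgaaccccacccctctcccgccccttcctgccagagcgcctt
Ndufs5: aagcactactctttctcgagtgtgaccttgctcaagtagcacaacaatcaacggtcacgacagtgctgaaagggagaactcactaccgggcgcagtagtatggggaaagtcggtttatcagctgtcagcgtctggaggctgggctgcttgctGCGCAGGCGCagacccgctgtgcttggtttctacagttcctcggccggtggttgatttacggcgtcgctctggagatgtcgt
Sdha: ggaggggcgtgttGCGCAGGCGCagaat
Cox6a1: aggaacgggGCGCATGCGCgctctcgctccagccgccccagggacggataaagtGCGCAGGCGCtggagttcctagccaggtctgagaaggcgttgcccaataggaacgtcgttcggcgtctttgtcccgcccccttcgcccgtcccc
Atp5h: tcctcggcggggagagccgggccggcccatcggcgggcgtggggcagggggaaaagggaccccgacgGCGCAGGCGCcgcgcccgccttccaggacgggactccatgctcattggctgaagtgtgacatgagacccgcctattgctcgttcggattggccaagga
The letters began 113 bases before the start in Ndufaf4, 191 in Ndufb4, 98 in Ndufs5, 55 in Sdha and 141 in Atp5h, and Cox6a1 held them at 162 and at 117 bases before its start.

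Other letter strings were searched on both strands in the same windows. The YY1 letters AAGATGGCG were in 8 of 78 member windows (10.3%) and in 2.14% of protein-coding genes, and the GABP letters CCGGAAGTG were in 2 of 78 (2.56%) and in 3.01%. The 8 members with the YY1 letters were Ndufa9, Ndufc1, Ndufs4, Ndufs6, Ndufaf8, Ndufs7, Atp5j and Atp5j2, named after their values were seen, and only Ndufs6 among them also held the NRF1 letters. A match describes the sequence of a window, and it shows neither binding nor use of a site.

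Depth was recovered from the FPKM steps. It ran from 3658365 reads assigned to genes in control replicate 2 and 6415130 in control replicate 1 to 20387102 in dd replicate 2, so the controls are the shallowest pair. Libraries grouped by replicate number rather than by treatment. Over the 95 members kept, the Spearman correlation of levels was 0.933 to 0.981 for pairs that share a number and 0.745 to 0.848 for pairs that share a treatment, given as a description over pairs that share libraries. The pluripotency markers Pou5f1, Sox2 and Nanog were above 0 in all 8 libraries, but not at one level. Pou5f1 was 83.1 and 251 FPKM in control and 24.2 and 14.7 in sh, 17.8 and 130 in sd, and 21.0 and 53.1 in dd, so each treated library was below the control of its number. In sh the log2 difference was -2.87 (SE 1.12, unadjusted limma p 0.0397, Benjamini-Hochberg adjusted limma p 1). Sox2 was 19.7 FPKM in sh replicate 2 and 177 to 371 in the other 7 libraries. Nanog was 215 to 335 FPKM over the 8 libraries. Of 10 pluripotency markers, 8, 8 and 9 had a positive difference from control in sh, sd and dd. Of all genes 65.5%, 62.9% and 53.6% had one. A low signal also separated the numbers, since 5.29% to 8.19% of 1135 olfactory receptor genes, which stem cells are not known to use, were above 0 in replicate 1 and 50.4% to 97.8% in replicate 2. The summed FPKM of 7 primitive endoderm markers was 25.3 to 37.3 in replicate 1 and 1.70 to 10.2 in replicate 2, and that of 8 fibroblast markers was 0.466 to 0.801 and 2.36 to 8.68. The part of these values in the results below was not tested. In bulk RNA, fewer cells of a type and less RNA per cell cannot be told apart.

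Nearly all members were expressed. Values are FPKM, fragments per kilobase of joined exon length scaled to a library total. Joined exons are up to 11.8 times as long as the principal transcript and not equally so for each gene. Ranks between genes are therefore rough and hold for the deposited values only. Of the 98 members, 95 reached a mean of at least 1 FPKM over the 8 libraries and were tested among 14561 genes. The 3 below it were Cox6a2 and Cox8b, the heart and muscle isoforms of their families, and a second Atp5o gene that reads through from Donson and was listed at 0 in every library. Ndufb2, a small accessory subunit, was the lowest complex I member kept at 3.39 FPKM on average. Ndufa1, a small subunit of the membrane arm, was the highest at 192 as deposited. On the length of the principal transcript Ndufa7 would stand at 484 and Ndufa6 at 298, above Ndufa1. Complex II ran from 3.09 for the assembly factor Sdhaf3 to 122 for the membrane anchor Sdhd. Complex III ran from 18.7 for Uqcrc1, a core protein facing the matrix, to 320 for the small subunit Uqcr10. Complex IV held the highest member of all, Cox8a at 653, and also Cox8c at 4.44, while complex V ran from 5.61 for Atp5s, the coupling factor B, to 298 for Atp5b, the catalytic beta subunit.

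Each treated group was set against the untreated control with limma on log2(FPKM + 1), and all 3 comparisons share the same 2 control libraries. No member passed a Benjamini-Hochberg adjusted p of 0.05 in sh, sd or dd, and no gene of the 14561 tested did (percent called 0 in each). At an unadjusted p under 0.05, limma marked 0, 0 and 1 of 95 members and 32, 50 and 83 of all genes, and limma with voom weights on the recovered reads marked 0 members in each. This fit has no term for replicate number, so the difference between numbers enters its error and makes it conservative. With that term limma marked 480, 945 and 1310 of all genes and called 0 after adjustment. The lack of calls does not show that treatment left the members unchanged. The median member difference was 0.03 in sh, 0.12 in sd and 0.13 in dd (log2), beside 0.15, 0.17 and 0.06 over all genes tested. Quantile normalization moved the all-gene medians to 0.04, 0.04 and 0.05. Of the 95, 51, 63 and 57 had a positive difference.

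The 1 member marked without adjustment was Ndufaf4 (chr4:24898083-24905001, plus strand), an assembly factor needed early in building complex I. Its FPKM was 4.51 and 4.34 in the untreated replicates 1 and 2, 10.02 and 7.48 with sh, 9.96 and 7.37 with sd, and 13.6 and 11.98 with dd. All 6 treated libraries lay above both controls, and dd above sh and sd in both numbers. The log2 difference was 1.34 (SE 0.50) in dd with an unadjusted limma p of 0.0335, 0.83 (SE 0.50) in sh and 0.82 (SE 0.50) in sd, with a Benjamini-Hochberg adjusted limma p of 1 in each. These values rest on 113 and 62 reads in the controls and 408 to 1018 in the treated libraries.

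Sdhaf3 (chr6:6956004-7042979), a factor that helps insert the iron-sulfur clusters of Sdhb, was expressed at a lower level. Its FPKM was 1.04 and 1.88 in control, 3.84 and 3.64 in sh, 3.49 and 3.10 in sd, and 3.60 and 4.16 in dd. All 6 treated libraries were above both controls, which held 34 and 35 reads. The log2 differences of 0.97, 0.83 and 1.01 (SE 0.48 each) had an adjusted limma p of 1. Ndufaf4 and Sdhaf3 were the members for which this held in all 3 treated groups. Taken singly, sh, sd and dd had 8.4%, 11.1% and 11.2% of all genes above both controls. The share of all genes above in all 3 was not computed. The 3 groups also share the same control libraries, so they do not repeat the result independently.

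Atp5s had 0 and 4.42 FPKM in control, 1.93 and 10.3 in sh, 6.48 and 8.52 in sd, and 2.12 and 11.1 in dd. Control replicate 1 held no read, and only in sd did both libraries exceed both controls. Ndufaf1, which helps build the membrane arm of complex I, had 1.14 and 17.1 FPKM in control, 6.98 and 23.4 in sh, 12.3 and 24.5 in sd, and 10.01 and 25.4 in dd. For Ndufaf1 the groups overlapped because the numbers differed by more than the treatments, and leaving out control replicate 1 turned its difference to -0.38 in sh and -0.09 in dd.

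Both treated libraries lay above both controls for 3 members in sh (Ndufaf4, Sdhaf2, Sdhaf3), 5 in sd (Ndufaf4, Sdhaf3, Sdhaf4, Uqcrfs1, Atp5s) and 5 in dd (Ndufaf4, Sdhaf2, Sdhaf3, Sdhaf4, Sdha). Among all genes tested this held for 8.4%, 11.1% and 11.2%, so the count of members is under the background in each group. Assembly factors and complex II genes, classes that overlap, make up most of these names, which was seen after the fact and not tested. Both treated libraries lay below both controls for Ndufa4 in sh, Cox7b in sd and no member in dd, against 2.13%, 2.69% and 4.72% of all genes.

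The members with the smallest unadjusted p among negative differences were Sdhaf4, Ndufaf5, Ndufaf8 and Atp5mpl in sh, Atp5k, Ndufaf6, Cox6c and Atp5g2 in sd, and Cox8c, Uqcrc1, Ndufa3 and Cox4i2 in dd. All had an adjusted limma p of 1. Sdhaf4, which binds the flavin form of Sdha, stood at 15.7 and 15.6 FPKM in control, with 4.58 and 18.8 in sh, so that sh lay below control in one number and above it in the other. Uqcrc1 stood at 5.92 and 43.2 FPKM in control, with 6.82 and 11.6 in dd, a log2 difference of -0.82 (SE 1.12) that rests on replicate 2 and is 0.52 without control replicate 2.

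As deposited, the treated libraries differed from control in opposite directions within the 2 numbers. In number 1 the median member difference was 0.35 in sh, 0.48 in sd and 0.36 in dd, with 76, 80 and 78 of 95 members above control. The share of all genes above control was 56.7%, 68.7% and 67.4%. In number 2 the median was -0.25, -0.28 and -0.14, with 31, 29 and 40 of 95 above control, beside 64.1%, 52.1% and 43.9% of all genes. Each of these is 1 library against 1 library and has no test. The signs depend on scaling in part: with median ratio scaling the medians in numbers 1 and 2 were 0.18 and -0.40 in sh, 0.01 and -0.19 in sd, and -0.01 and 0.17 in dd, and with quantile normalization 0.26 and -0.25, 0.17 and -0.19, and 0.12 and 0.04. The opposite signs remained in sh under all 3 scalings. In sd number 1 had no direction with median ratio scaling (48 members above control and 46 below), and in dd the opposite signs were not kept.

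**Figure D1:**
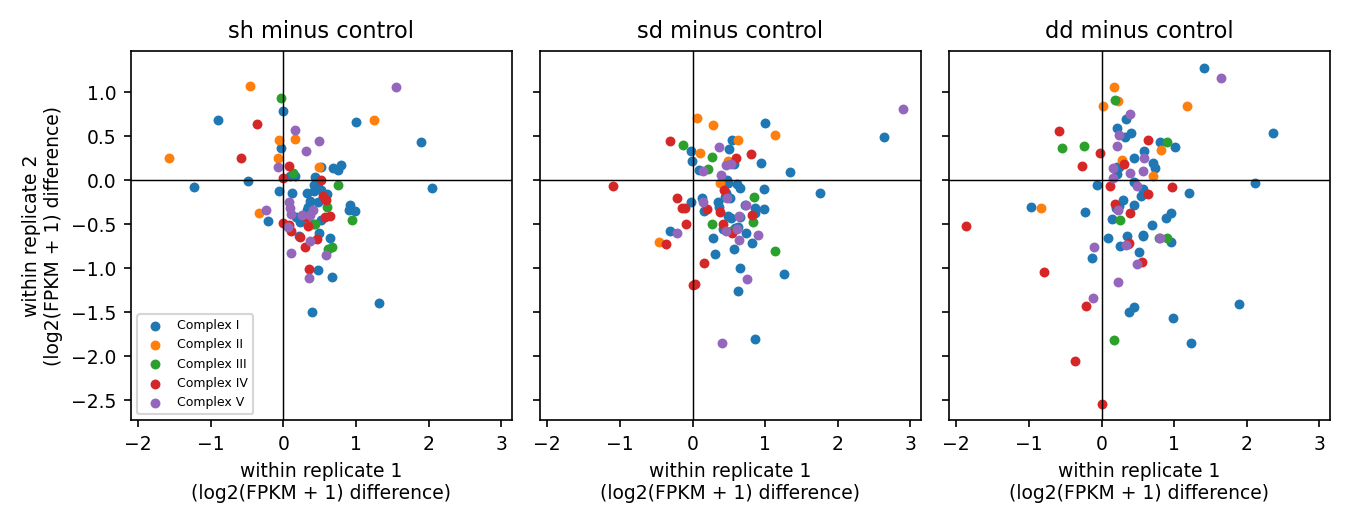
Difference from control of each of the 95 members kept, on the log2(FPKM + 1) scale as deposited, within replicate 1 (horizontal axis) and within replicate 2 (vertical axis), for sh, sd and dd; each point is 1 member, coloured by complex. Most points lie right of 0 (76, 80 and 78 members), and 31, 29 and 40 lie above 0 in replicate 2; for dd the negative median in replicate 2 is not kept after median ratio scaling or quantile normalization.

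By complex, complex III had medians of 0.61 in number 1 and -0.38 in number 2 for sh, and complex IV 0.30 and -0.41. Complex II had -0.07 and 0.36 in sh, 0.33 and 0.38 in sd, and 0.26 and 0.59 in dd, over 8 genes. Its 4 catalytic and anchor subunits had a positive difference from control in all 3 treated groups when both numbers were averaged. Sdha, the flavoprotein that oxidizes succinate, had 33.2 and 20.3 FPKM in control, 23.9 and 43.7 in sh, 40.7 and 32.0 in sd, and 33.6 and 37.2 in dd. Only in dd were both Sdha libraries above both controls, and no complex II gene passed the test.

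Replicate number separated the members far more than treatment did, so its contrast is given in full. With limma and a term for group, 76 of 95 members differed between the 4 libraries numbered 2 and the 4 numbered 1 at a Benjamini-Hochberg adjusted p under 0.05, 68 higher and 8 lower in replicate 2. The 68 include Cox4i2 and Ndufa4l2, which passed the filter only through replicate 2, so their calls had to favour it. Of all 14561 genes 61.3% were called, 46.6% higher and 14.6% lower, and of 9935 protein-coding genes 35% higher and 18.9% lower. The median member difference was 1.19 (log2), against 0.73 for all genes and 0.31 for protein-coding genes. The shift of all genes was 0.02 with quantile normalization and 0.24 with median ratio scaling, and the member median was then 0.52 and 0.54. The split of member calls moved with it, to 44 higher and 22 lower with quantile normalization and 40 higher and 15 lower with median ratio scaling. Of all 14561 genes, 4015 were then called higher and 4343 lower with quantile normalization, and 4988 and 3623 with median ratio scaling.

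Under all 3 scalings 38 members were called higher and 8 lower, beside 26.8% and 14.6% of all genes. The 38 hold 19 of 44 in complex I, 1 of 8 in complex II, 4 of 8 in complex III, 9 of 18 in complex IV and 5 of 17 in complex V. The 9 of complex IV include Cox4i2 and Ndufa4l2, whose calls had to favour replicate 2. A further 15 members changed sign with the scaling and are given no direction: Ndufa1, Ndufa3, Ndufa7, Ndufa12, Ndufb3, Ndufc2, Sdhaf3, Uqcrb, Uqcrfs1, Cox6a1, Cox6b1, Cox7b, Cox8a, Atp5a1 and Atp5b. Several of these are the most abundant members. By group, the median of replicate 2 minus replicate 1 over members was 1.69 for control, 1.04 for sh, 0.86 for sd and 0.996 for dd, beside 0.96, 0.92, 0.51 and 0.35 over all genes. All 4 libraries numbered 2 were above all 4 numbered 1 for 66 members (41.9% of all genes) and below them for 7 (14.2% of all genes). The 66 include Cox4i2 and Ndufa4l2 as well.

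**Figure D2:**
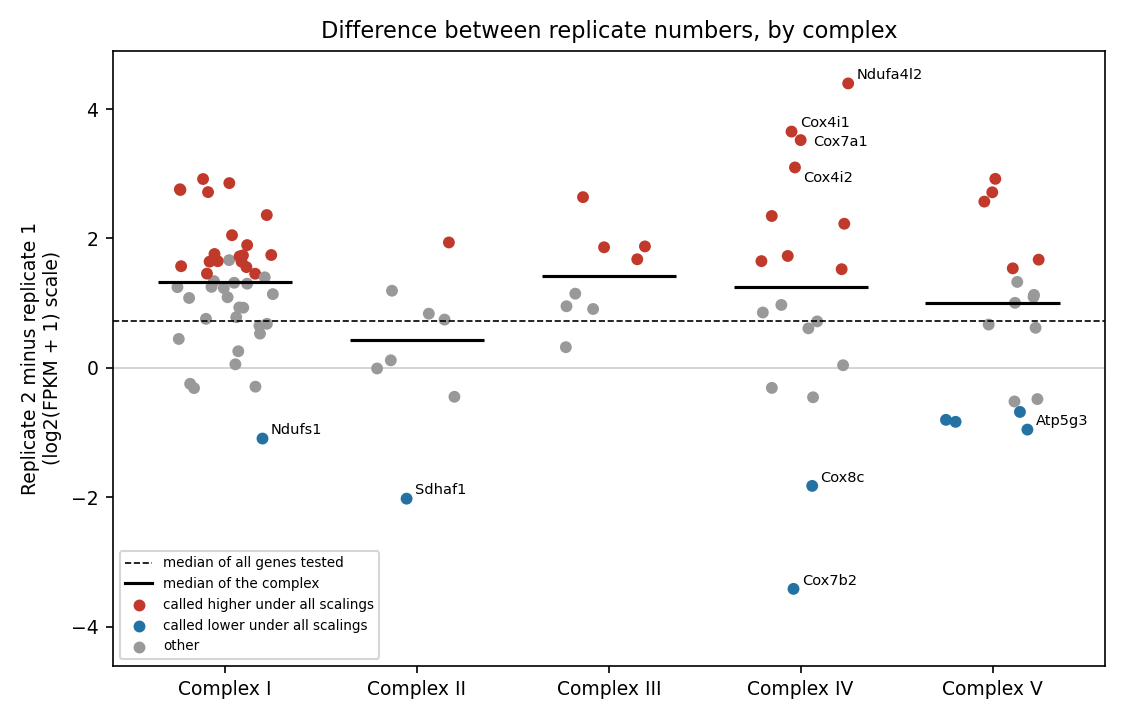
Replicate 2 minus replicate 1 for each member kept, as fitted by limma on the log2(FPKM + 1) scale as deposited, by complex; red and blue mark members called higher or lower under all 3 scalings, grey the rest, including the 15 members whose sign changes with the scaling. Among complex IV members with reads in every library the differences run from -3.41 (Cox7b2) to 3.65 (Cox4i1), while Cox4i2 and Ndufa4l2, at or near 0 in replicate 1, are placed by the pseudocount. Cox4i2 and Ndufa4l2 passed the filter only through replicate 2, so their red marks had to favour it. The complex II median of 0.43 turns negative under both other scalings.

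In complex I, 34 of 44 genes were called higher in replicate 2 and 1 lower as deposited, with a median of 1.33. Of all genes 46.6% were called higher and 14.6% lower, with a median of 0.73. The 7 nuclear core subunits carry the flavin, the iron-sulfur clusters and the quinone site. Ndufs8, which holds iron-sulfur clusters, had 2.41, 5.75, 5.18 and 6.99 FPKM in replicate 1 of control, sh, sd and dd and 58.0, 45.2, 46.5 and 15.3 in replicate 2. The numbers did not overlap, and the log2 difference was 2.72 (SE 0.43, adjusted limma p 0.00068).

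Ndufs1, the largest core subunit, went the other way. Its FPKM was 19.7, 19.5, 29.1 and 25.2 in replicate 1 and 7.07, 12.9, 10.1 and 12.05 in replicate 2, with every replicate 2 library below every replicate 1 library. The log2 difference was -1.09 (SE 0.26, adjusted limma p 0.0054), and -1.63 and -1.70 under the other scalings. Ndufs1 (chr1:63143596-63176833) shares exon bases with Ino80dos and Eef1b2 on the opposite strand, and the use of strand in counting is not given in the sources used here. Ndufv2, with an iron-sulfur cluster near the flavin, had 15.4, 20.9, 28.8 and 30.9 FPKM and then 91.8, 84.0, 70.9 and 56.0 (log2 difference 1.64, SE 0.30, adjusted limma p 0.0015). Ndufv1, which binds NADH and the flavin, overlapped between numbers because dd replicate 2 was at 12.6 FPKM, beside 34.99 to 40.3 in the other replicate 2 libraries. Ndufs3 and Ndufv1 were called higher as deposited and not under both other scalings, while Ndufs7 kept its call with 8.42 ± 1.54 FPKM in replicate 1 and 38.6 ± 10.5 in replicate 2 (SD, n = 4 each, over the 4 groups).

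Of 29 accessory subunits of complex I 21 were called higher and 0 lower by limma as deposited, and at an unadjusted p under 0.05 24 were marked in either direction. Of all 14561 genes 46.6% were called higher and 14.6% lower, and 9543 had an unadjusted limma p under 0.05. Under all 3 scalings 11 were higher, beside 26.8% of all genes. Quantile normalization called 2 lower, Ndufa1 and Ndufa8 (the second named after its values were seen), beside 4343 of 14561 genes. Of 8 assembly factors 7 were called higher as deposited and 4 under all 3 scalings, with Ndufaf4 as the exception at -0.25 (SE 0.24). The accessory subunit Ndufa6 had 16.6, 19.6, 28.0 and 28.3 FPKM in replicate 1 and 189, 136, 155 and 209 in replicate 2. Ndufa10, another accessory subunit, had 2.81, 2.73, 4.65 and 2.26 and then 28.4, 37.0, 32.5 and 21.8. Neither gene overlapped between numbers. Their log2 differences of 2.86 (SE 0.24) and 2.92 (SE 0.25) had adjusted limma p of 2e-05 and 2.2e-05. Ndufa1 differed by 0.26 (SE 0.23), a sign that turns under quantile normalization and median ratio scaling.

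Complex II had a median of 0.43 as deposited, which turned to -0.21 with quantile normalization and -0.12 with median ratio scaling. Sdhb, the iron-sulfur subunit, had 13.5, 19.3, 17.8 and 22.6 FPKM in replicate 1 and 69.8, 77.8, 68.2 and 72.1 in replicate 2. Its log2 difference was 1.94 (SE 0.23, adjusted limma p 0.00013), and it was the complex II gene called higher under all 3 scalings. The flavoprotein Sdha, its partner, differed by -0.01 (SE 0.29), so that the mean FPKM was 32.9 and 33.3 in replicates 1 and 2 for Sdha and 18.3 and 72.0 for Sdhb. The anchors Sdhc and Sdhd were higher by 0.75 (SE 0.23) and 1.19 (SE 0.23) as deposited, a call that neither other scaling kept.

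The assembly factors of complex II split. Sdhaf1, which serves the iron-sulfur clusters of Sdhb, had 26.5, 20.7, 18.9 and 14.4 FPKM in replicate 1 and 5.49, 4.02, 2.98 and 4.24 in replicate 2, a log2 difference of -2.02 (SE 0.25, adjusted limma p 0.00017). Of the 31-base stretches of Sdhaf1 (chr7:30321406-30323895) 69.9% also occur in E130208F15Rik on the opposite strand, so the reads of these genes cannot be told apart without strand. Sdhaf4 was higher by 0.84 (SE 0.32, adjusted limma p 0.043) as deposited only. Sdhaf2, which helps attach the flavin, differed by -0.45 (SE 0.26) and did not pass.

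In complex III 7 of 8 genes were called higher as deposited and none lower, and 7 of 8 were marked at an unadjusted p under 0.05. Of all 14561 genes 46.6% were called higher and 14.6% lower, and 9543 had an unadjusted limma p under 0.05. Uqcrc2, a core protein, had 5.07, 4.91, 4.56 and 3.17 FPKM in replicate 1 and 23.9, 46.5, 31.9 and 31.1 in replicate 2 (log2 difference 2.64, SE 0.26, adjusted limma p 4.8e-05). Uqcrc1 had 5.92, 9.44, 9.01 and 6.82 and then 43.2, 34.9, 28.7 and 11.6 (1.68, SE 0.33, adjusted limma p 0.0021). The Rieske protein Uqcrfs1, which passes electrons within the complex, had 140, 154, 162 and 118 FPKM against 161, 170, 176 and 210, and its difference of 0.32 turned to -0.73 and -0.34 under the other scalings. In dd the difference between numbers was 0.69 for Uqcrc1 and 0.83 for Uqcrfs1, so the core protein did not exceed the Rieske protein there. Uqcr10 and Uqcrq, small subunits, were higher under all 3 scalings, with 136 ± 27.1 and 504 ± 114 FPKM (SD, n = 4 each) for Uqcr10.

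**Figure D3:**
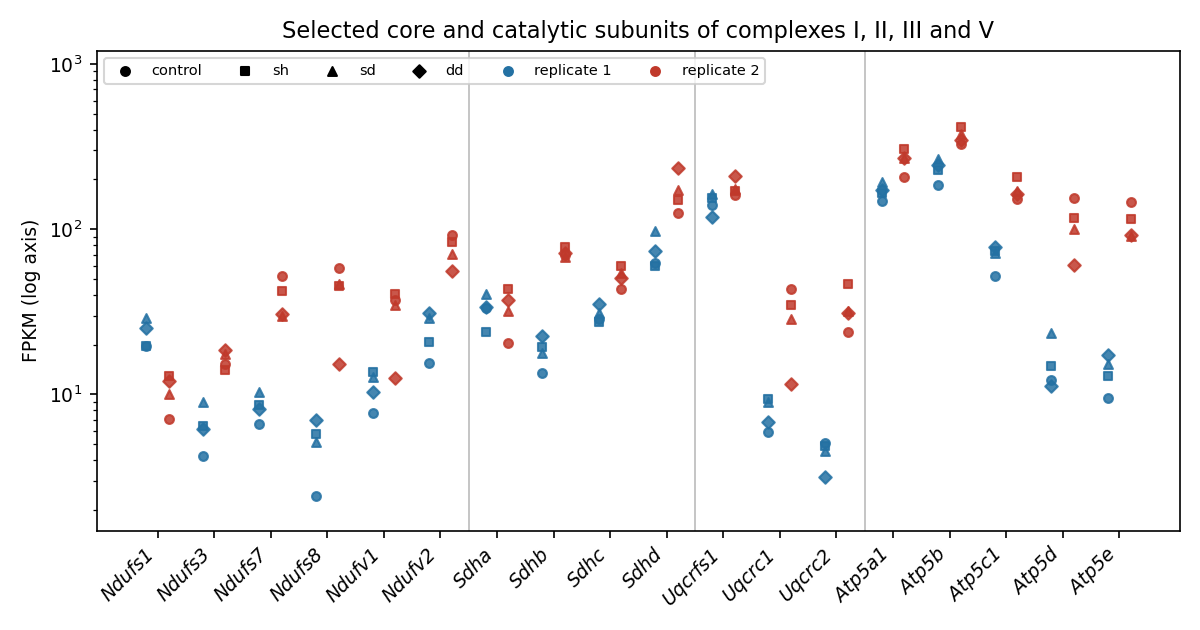
FPKM (log axis) of selected core and catalytic subunits of complexes I, II, III and V in each of the 8 libraries, blue for replicate 1 and red for replicate 2, with a marker shape for each group. Ndufs1 is lower in replicate 2 and Sdha, Uqcrfs1 and Ndufv1 overlap between numbers, while Sdhb, Ndufs8 and Uqcrc2 do not; the sign for Uqcrfs1, Atp5a1 and Atp5b changes with the scaling.

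In complex IV 12 of 18 genes were called higher and 2 lower as deposited, and 9 and 2 under all 3 scalings. Of all genes 46.6% and 14.6% were called as deposited, and 26.8% and 14.6% under all 3. The 12 and the 9 include Cox4i2 and Ndufa4l2, which are no support for a rise. Cox4i1 (chr8:120668222-120674207, which shares exon bases with Emc8 on the opposite strand), the general form of a regulatory subunit, had 20.01, 30.1, 23.1 and 29.8 FPKM in replicate 1 of control, sh, sd and dd and 442, 331, 353 and 232 in replicate 2. Its log2 difference was 3.65 (SE 0.27, adjusted limma p 1.1e-05), and 2.81 and 2.999 under the other scalings. Cox4i2, the lung form, was listed at 0 in all 4 libraries of replicate 1 and had 15.3, 15.5, 6.11 and 1.81 FPKM in replicate 2. Ndufa4l2, a paralog of Ndufa4 known from low oxygen, had 0.285 FPKM in control replicate 1, 0 in the other 3, and 31.5, 49.5, 18.7 and 6.81 in replicate 2. Cox4i2 and Ndufa4l2 passed the filter only through replicate 2, so their calls had to favour it, and their fitted differences depend on the pseudocount and give no fold.

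Cox7a1, the heart and muscle form, had 8.16, 11.6, 8.36 and 4.29 FPKM and then 163, 103, 71.7 and 78.8 (log2 difference 3.52, SE 0.28, adjusted limma p 1.5e-05). Its general counterpart Cox7a2 had 351, 370, 303 and 345 FPKM and then 295, 207, 257 and 367, which overlap. Cox6b2, the testis form, was higher by 2.23 (SE 0.33), and Cox7a2l, which joins complexes III and IV into supercomplexes, by 1.53 (SE 0.25), both under all 3 scalings. Cox6a2 and Cox8b were listed at 0 throughout replicate 1. In replicate 2 of control, sh, sd and dd Cox6a2 had 5.63, 0.737, 0.191 and 0 FPKM and Cox8b 3.04, 1.59, 0.542 and 1.499. The 95th percentile of olfactory receptor genes in the same libraries was 0.877, 0.533, 0.449 and 0.0866 FPKM, so Cox6a2 was at or under that background in sd and dd.

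The summed FPKM of 6 muscle markers moved with these isoforms, at 0 to 0.121 in replicate 1 and 0.450 to 5.46 in replicate 2. None of the 6 reached a mean of 1 FPKM. Myh6, Myh7, Actc1, Tnnt2, Ckm and Myog were all at 0 in control replicate 1, and Myog was at 0 in control replicate 2 as well. The olfactory 95th percentile was 0.877 FPKM in control replicate 2. Ckm (0.845) and Actc1 (0.507) were under it there, and Myh6 (1.42), Myh7 (1.21) and Tnnt2 (1.48) above it. In dd replicate 2 it was 0.0866, with Myh7, Actc1, Tnnt2 and Myog under it and Myh6 and Ckm above it. The part of the muscle markers in the levels of Cox6a2, Cox7a1 and Cox8b was not tested.

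A pair of paralogs went the other way. Cox7b2 (chr5:71442824-71548205) had 123, 192, 57.1 and 81.7 FPKM in replicate 1 and 8.57, 6.21, 8.17 and 13.1 in replicate 2 (log2 difference -3.41, SE 0.37, adjusted limma p 7.1e-05). Cox8c, the testis form of Cox8, had 8.85, 13.3, 6.98 and 1.71 and then 1.19, 0.938, 1.99 and 0.535 (log2 difference -1.82, SE 0.36, adjusted limma p 0.0023), and its numbers overlapped through dd replicate 1 and sd replicate 2. Both were called lower under all 3 scalings. The general forms Cox7b and Cox8a differed by 0.04 and 0.86 as deposited, each with a sign that turns under quantile normalization. No 31-base stretch is shared within the Cox4, Cox6a, Cox6b, Cox7a, Cox7b or Cox8 families, and 3 are shared by Ndufa4 and Ndufa4l2, so reads of that length would seldom be split between the isoforms.

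**Figure D4:**
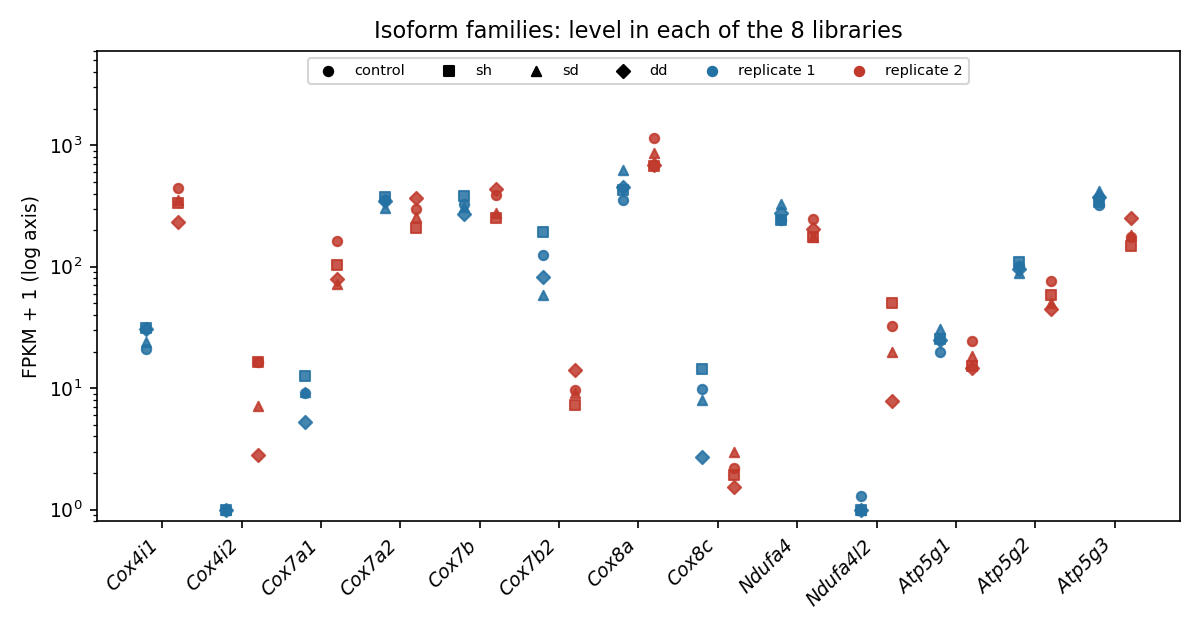
FPKM + 1 (log axis) of isoform families of complexes IV and V in each of the 8 libraries, blue for replicate 1 and red for replicate 2, with a marker shape for each group. Cox4i1, Cox4i2, Cox7a1 and Ndufa4l2 are higher in every replicate 2 library, Cox7b2, Atp5g2 and Atp5g3 lower, and Cox7a2, Cox7b and Ndufa4 overlap; the sign for Cox7b and Cox8a changes with the scaling.

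Against control, the tissue isoforms of complex IV had the lowest median of any role in dd. None of the 6 kept had a positive difference in dd, and their median was -1.05 (log2), beside 0.13 for all members. Within replicate 1 Cox4i2 was at 0 in both libraries and cannot be compared, and Ndufa4l2 went from 0.285 FPKM in control to 0 in dd. Within replicate 2 the median was -1.23 with 1 of 6 positive. In replicate 2 Cox4i2 had 15.3 FPKM in control and 1.81 in dd, Ndufa4l2 31.5 and 6.81, and Cox6b2 69.3 and 25.2. No member of the set passed the test, and Cox7b2 was higher in dd than in control there. Olfactory receptor genes above 0 were also fewer in dd replicate 2 (50.4%) than in control replicate 2 (86.4%), and the part of this in the isoform levels was not tested.

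In complex V 11 of 17 genes were called higher in replicate 2 and 4 lower as deposited, and 5 higher and 8 lower after quantile normalization. Of all 14561 genes 46.6% were higher and 14.6% lower as deposited, and 4015 higher and 4343 lower after quantile normalization. All 5 subunits of the F1 head were called higher as deposited, with a median of 1.33. Under all 3 scalings 2 of them were, beside 26.8% of all genes. Atp5e, the epsilon subunit of the central stalk, had 9.50, 12.8, 15.4 and 17.3 FPKM in replicate 1 and 145, 114, 90.6 and 91.5 in replicate 2, and Atp5d, the delta subunit, 12.2, 14.8, 23.6 and 11.2 and then 155, 117, 100.1 and 60.9. Their log2 differences were 2.92 (SE 0.29, adjusted limma p 4.4e-05) and 2.71 (SE 0.29, adjusted limma p 6.8e-05). The abundant alpha and beta subunits changed little beside them. Atp5a1 had 170 ± 18.1 and 264 ± 41.7 FPKM in replicates 1 and 2 (SD, n = 4 each), and Atp5b 231 ± 34.7 and 366 ± 37.2. Their differences of 0.62 and 0.67 turned to -0.51 and -0.62 under quantile normalization. The subunits of one F1 head thus differed in how far their transcripts moved between numbers.

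Among the Fo and peripheral stalk genes, 5 of 8 kept were called higher and 2 lower as deposited, beside 46.6% and 14.6% of all genes. Quantile normalization and median ratio scaling each called 2 higher and 3 lower. Of all 14561 genes the first called 4015 higher and 4343 lower, and the second 4988 and 3623. Atp5h, the d subunit of the peripheral stalk whose promoter is printed above, had 13.3, 11.1, 14.9 and 15.0 FPKM and then 93.7, 74.1, 78.6 and 95.6 (log2 difference 2.57, SE 0.22, adjusted limma p 2.3e-05). Atp5f1, the b subunit of the same stalk, was lower, at 118 ± 17.3 and 74.5 ± 19.7 FPKM (SD, n = 4 each, log2 difference -0.68, SE 0.21, adjusted limma p 0.02). Atp5f1 and Atp5l share exon bases with genes on the opposite strand (Wdr77 and Gm42890, and Gm30934). Atp5l is also the member whose deposited level is lowered most by its annotation: its exons join to 6443 bases, 11.8 times the 544 of its principal transcript.

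The c-ring, the rotor that protons turn, is encoded by 3 genes, Atp5g1, Atp5g2 and Atp5g3, which give the same mature protein from different messages. The last 90 coding bases of each, all from 1 exon, are shown because they make clear how reads of these genes can be told apart: capitals mark the 24 positions that are not the same in all 3 genes (GENCODE M21 on GRCm38, minus strand, chr11:96073104-96073193, chr15:102663014-102663103 and chr2:73908593-73908682).
Atp5g1: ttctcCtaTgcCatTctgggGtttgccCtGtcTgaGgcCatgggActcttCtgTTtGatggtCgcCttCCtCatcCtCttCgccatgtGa
Atp5g2: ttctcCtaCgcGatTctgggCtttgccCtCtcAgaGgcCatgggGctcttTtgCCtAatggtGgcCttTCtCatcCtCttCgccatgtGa
Atp5g3: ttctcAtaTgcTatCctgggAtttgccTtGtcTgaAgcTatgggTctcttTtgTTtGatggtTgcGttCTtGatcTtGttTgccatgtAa
Identity with Atp5g3 was 81.1% for Atp5g1 and 74.4% for Atp5g2, and no stretch of 31 bases is shared by any pair of the full messages. Reads can still be lost to processed copies: 40.2% of the 31-base stretches of Atp5g2 occur elsewhere, 14.1% of those of Atp5g1 and 0% of those of Atp5g3.

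Of the 3 c-ring genes 2 were called lower in replicate 2 and none higher, beside 14.6% and 46.6% of all genes. Atp5g3 had 319, 337, 420 and 375 FPKM in replicate 1 of control, sh, sd and dd and 176, 148, 183 and 251 in replicate 2, and Atp5g2 101, 108, 87.1 and 94.1 and then 75.1, 57.6, 49.3 and 44.0. In both genes every replicate 2 library was below every replicate 1 library. The log2 differences were -0.95 (SE 0.21, adjusted limma p 0.0036) and -0.80 (SE 0.22, adjusted limma p 0.012), lower under all 3 scalings. Atp5g1 had 24.1 ± 4.49 and 17.2 ± 4.51 FPKM (SD, n = 4 each), and its difference of -0.48 (SE 0.27) did not pass as deposited, while all 3 were called lower under each of the other scalings. Against control the c-ring genes had medians of -0.14 in sh, 0.12 in sd and -0.20 in dd, with none called.

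Nuclear and mitochondrial genes of the chain moved apart. The 98 members took 0.750%, 0.882%, 0.995% and 0.933% of assigned reads in replicate 1 of control, sh, sd and dd and 1.62%, 1.42%, 1.39% and 1.498% in replicate 2. The 13 protein genes of the mitochondrial genome took 6.63%, 6.06%, 8.94% and 10.5% and then 3.65%, 2.31%, 2.58% and 4.60%. In each of the 4 groups the nuclear share was larger and the mitochondrial share smaller in replicate 2. A share is a part of all assigned reads, so it also moves when other genes take more or fewer reads. The rise of the nuclear share is thus no check apart from the scaling. Only the relation of the nuclear to the mitochondrial share within a library does not depend on a factor for that library. Of the 13, 8 were called lower and 3 higher as deposited, with a median of -1.40 (log2), and 8 lower and 0 higher under all 3 scalings. Of all genes 14.6% were lower and 46.6% higher as deposited, and 14.6% and 26.8% under all 3 scalings. Against control, 13 of 13 had a positive difference in dd, 6 in sd and 1 in sh, with none called by limma. Of all genes 53.6%, 62.9% and 65.5% had one in dd, sd and sh. These differences average both numbers, and within replicate 2 some of the 13 were below control in dd and others above it.

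**Figure D5:**
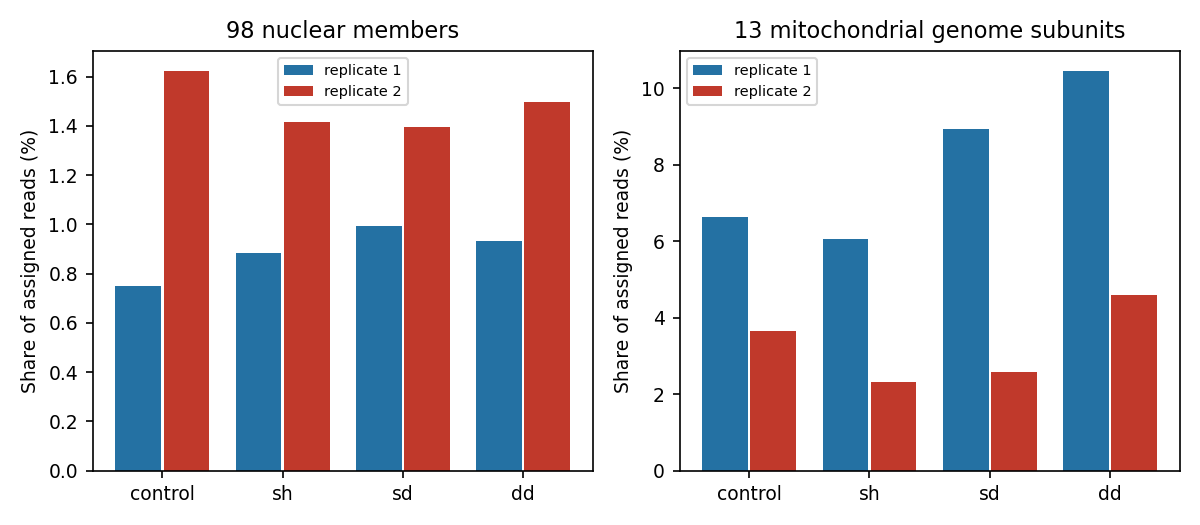
Share of reads assigned to genes (%, from 0) taken by the 98 nuclear members (left) and by the 13 protein genes of the mitochondrial genome (right) in each library, blue for replicate 1 and red for replicate 2; each bar is 1 library. The nuclear share is higher in replicate 2 in all 4 groups (1.39% to 1.62% against 0.750% to 0.995%) and the mitochondrial share lower.

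Other genes of the pathway, from lists chosen with earlier results of these data known, were set beside the members for the replicate contrast as deposited, where 46.6% of all genes were called higher and 14.6% lower. Of 15 assembly genes of complex IV kept, 8 were called higher and 2 lower, shares near those of all genes. Under all 3 scalings 4 were higher and 2 lower, beside 26.8% and 14.6% of all genes. Sco1, a copper carrier, had 17.5, 21.9, 11.7 and 14.7 FPKM in replicate 1 and 5.08, 3.76, 3.38 and 2.24 in replicate 2. Of 9 complex I assembly genes outside the name rule 3 were higher and 1, Timmdc1, lower, and of 7 genes of complex III and cytochrome c kept 2 were higher and 1 lower. Uqcc2, needed to make cytochrome b, had 7.26, 2.43, 3.70 and 7.92 FPKM and then 136, 68.4, 66.6 and 40.1. Of 4 complex V assembly genes 2 were higher, with Atpif1, the inhibitor of the ATP synthase, at 20.4, 21.9, 25.9 and 19.7 FPKM and then 169, 138, 162 and 178.

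Of 14 coenzyme Q and electron entry genes kept 7 were higher and 1 lower, and of 12 citric acid cycle genes 8 were higher and none lower. Under all 3 scalings these were 3 and 1, and 6 and 0, beside 26.8% and 14.6% of all genes. Among 11 regulators of mitochondrial biogenesis kept, 3 were higher and 3 lower as deposited, and 0 and 3 under all 3 scalings. Their median was 0.23 as deposited, -0.29 with quantile normalization and -0.38 with median ratio scaling. Nrf1 had 2.85, 3.60, 4.56 and 3.34 FPKM and then 3.67, 3.85, 3.33 and 3.02. Its log2 difference was -0.03 (SE 0.26) as deposited, and no direction or constancy is given for it under the other scalings. Myc, which also acts on many growth genes, had 21.7, 20.04, 13.7 and 23.4 FPKM and then 2.11, 0.342, 0.479 and 0.289. No gene of these lists passed the limma test in sh, sd or dd. Positive differences from control were found in 12, 12 and 11 of the 12 citric acid cycle genes in sh, sd and dd, with medians of 0.38, 0.37 and 0.37 beside 0.15, 0.17 and 0.06 over all genes. Of all genes 65.5%, 62.9% and 53.6% had a positive difference, and the 3 comparisons share their controls.

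Properties of the genes did not order the members by their difference between numbers. Over the 95 kept, the Spearman correlation with that difference was -0.11 for joined exon length, -0.07 for the length of the principal transcript, -0.11 for the share of stretches found elsewhere and -0.11 for mean FPKM, given as descriptions over genes that share libraries. Members are short, with a median joined exon length of 1578 bases against 4125 for protein-coding genes kept, and 863 for the principal transcripts of the members. Of the 98, 59 share stretches with a pseudogene, 12 share over 25% of their stretches with other genes and 32 have exon bases under a gene on the opposite strand. Of the 61 kept members that share under 10%, 43 were called higher and 4 lower between numbers as deposited, beside 46.6% and 14.6% of all genes. The 43 include Ndufa4l2, whose call had to favour replicate 2. The NRF1 letters were in 14 of 54 members called higher, 2 of 5 called lower and 5 of 18 not called, and the YY1 letters in 8, 0 and 0, with no test.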

How the data were processed

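RNA sequencing of mESCs gave 8 libraries in 4 groups of 2. The deposited values are FPKM per gene. Per the submitters' processing notes, CASAVA 1.4, HISAT2 and the genome build mm10 were used, and how reads were counted, with which annotation, library total and strand setting, is not given in the sources used here. Gene IDs were matched to GENCODE M21 for names, exon lengths and coordinates (GRCm38).

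FPKM times the joined exon length stepped in whole reads, within 0.02 of a read for 98.3% to 98.9% of values under 100 reads, which gave the depth of each library. Precision at low levels is limited by these reads.

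Genes with a mean of at least 1 FPKM were tested on log2(FPKM + 1) with limma 3.58.1 in R 4.3.3, without a block against control and with a group term between replicate numbers, and p-values were Benjamini-Hochberg adjusted over all 14561 genes. A fold change on this scale understates the change of low genes. The script was tested on simulated data. Tables were made with Python 3.11.15, pandas 2.3.3 and numpy 2.4.6. Alternatives were pseudocounts of 0.1 and 0.5, no filter, a minimum of 5 FPKM, quantile normalization, median ratio scaling, voom weights on recovered reads, a replicate block, no group term and each library left out.

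Members and lists were chosen with earlier results of these data known. Named genes were all complex II genes, the highest and lowest member of each other complex, core and catalytic subunits, isoform families, the 4 members with the smallest p in each direction and contrast, and at most 2 genes per other list. A gene that this rule names is not reported here.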

Additional observations from a re-analysis of the deposited data

Results flagged for a closer look

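The median difference of the members from control had opposite signs within replicate number 1 and within replicate number 2, as 1 library against 1 library in each, and the difference between the numbers was not tested. Over all 95 members kept it was 0.35 and -0.25 in sh, 0.48 and -0.28 in sd, and 0.36 and -0.14 in dd (log2). In complex I it was 0.42 and -0.15 in sh, 0.57 and -0.27 in sd, and 0.45 and -0.25 in dd. In complex II it was -0.0714 and 0.36 in sh. In complex III it was 0.61 and -0.38 in sh, 0.40 and -0.33 in sd, and 0.22 and -0.0414 in dd. In complex IV it was 0.30 and -0.41 in sh, 0.10 and -0.34 in sd, and 0.15 and -0.32 in dd. In complex V it was 0.26 and -0.34 in sh, and 0.47 and -0.28 in sd. The controls differ most between numbers, with a median member difference of 1.69 against 0.86 to 1.04 in the treated groups, and control replicate 2 is the shallowest library. The part of depth in these values was not tested.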

How the results depend on the processing

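No member was called against control under any alternative run. With the replicate block the medians were 0.03, 0.12 and 0.13 in sh, sd and dd and 0 members were called, with 4, 3 and 6 at an unadjusted p under 0.05; voom with the block also called 0. Same-numbered libraries deviated together (correlations of 0.750 to 0.893), but the labels do not say what the numbers mark. Leaving out 1 library moved the member medians from -0.83 to 0.90 in sh, -0.63 to 0.95 in sd and -0.67 to 1.01 in dd, the extremes being without control replicate 1 and without control replicate 2. Between numbers, calls were 44 higher with no filter, 44 higher and 22 lower after quantile normalization (median 0.52), 40 and 15 after median ratio scaling (median 0.54), and 59 to 64 higher, 5 to 11 lower and a median of 1.005 to 1.30 with 1 library left out. The sign turned after quantile normalization and median ratio scaling for Sdhaf3 (-0.61 and -0.35), Uqcrfs1 (-0.73 and -0.34), Atp5a1 (-0.51 and -0.0398), Cox6a1 (-0.81 and -0.0501) and Cox7b (-1.26 and -0.62), after quantile normalization for Atp5b (-0.62), Cox6b1 (-0.11) and Cox8a (-0.58), and with voom for Sdha (0.13). With 1 library left out the sign also turned in sh for Ndufaf1 (-0.38 to 2.70), Sdhaf4 (-1.58 to 0.25), Ndufaf5 (-1.82 to 0.52), Ndufaf8 (-2.11 to 1.01) and Atp5mpl (-0.76 to 0.0317), in sd for Atp5k (-1.92 to 0.48), Ndufaf6 (-1.09 to 0.20), Cox6c (-1.07 to 0.29) and Atp5g2 (-0.81 to 0.00087), in dd for Ndufaf1 (-0.0878 to 2.99), Uqcrc1 (-2.16 to 0.52), Ndufa3 (-1.18 to 0.19) and Cox4i2 (-3.28 to 0.74), and between numbers for Sdha (-0.29 to 0.22), Sdhaf3 (-0.0086 to 0.20) and Cox7b (-0.17 to 0.26). The cause was not tested. Ndufaf4 kept its direction in all 3 treated groups under every alternative run. Low members rest on few control reads, which limits them.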
